A study of Mus musculus with 8 samples.

Results

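The 9 complement genes C1qa, C1qb, C1qc, C3, C4b, C2, Cfb, Serping1 and C3ar1 were followed through 8 tumours, out of 24028 genes counted. They were taken by symbol, from a list drawn up with earlier results of these data known. The tumours grew from TRAMP-C2 cells, a mouse prostate adenocarcinoma line that came from a TRAMP transgenic animal, after 1 M cells had been placed in the dorsolateral prostate of immune-competent male C57BL/6 hosts. 4 tumours came from aged hosts, 20 to 24 months old, and 4 from young hosts, 4 months old. Harvest was 30 to 45 days after injection in either group, and the day of each tumour is not given in the sources used here. Each tumour has a mouse number of its own in the labels and is named here by host age and that number. A single cell line was used, and bulk mRNA was counted, so transcripts of injected cells and of host cells were read together. Fewer cells of a type and less RNA per cell therefore cannot be told apart.

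Complement is a cascade of plasma and tissue proteins that tags and damages cells and calls in leukocytes. C1q, built of A, B and C chains, binds immune complexes and dying cells. It starts the classical pathway through the proteases C1r and C1s, and C1s cuts C4 and C2. The products form an enzyme that cleaves C3, factor B does the same in the alternative pathway, and C1 inhibitor (Serping1) stops C1r and C1s. C3a, a fragment of C3, signals through the receptor C3ar1 on myeloid cells. In tissues macrophages are the main source of C1q, while C3, C4, factor B and C1 inhibitor are made by the liver and also locally by fibroblasts, epithelium and leukocytes, where interferons and other cytokines induce them.

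The libraries held 27.1 M to 35.7 M fragments, and a level of 3 fragments corresponds to 0.084 to 0.111 CPM (counts per M fragments), which allows for counting error alone. The label calls the injected cells epithelial, and the 7 epithelial markers summed to 144 to 687 CPM in the aged group and 63.5 to 467 CPM in the young group. Epcam was lowest in young 43, at 0.7 CPM. Seminal vesicle secretory genes summed to 21249 CPM in aged 50 and 36946 CPM in young 36. The other 6 tumours had 0.55 to 17.1 CPM. Prostate secretory genes summed to 11184 CPM in young 37, 4941 CPM in aged 50 and 1291 CPM in young 36. In the other tumours they summed to 6.07 to 214 CPM. Many values are also given without aged 50 and young 36, a set that keeps young 37 and is not free of secretory transcripts. All 10 macrophage markers and all 10 fibroblast markers were detected. Macrophage markers summed to 1826 to 3636 CPM in the aged group and 2330 to 3809 CPM in the young group, and fibroblast markers to 7849 to 18144 CPM in the aged group and 14094 to 25218 CPM in the young group. The 6 hepatocyte markers summed to 0.12 to 0.62 CPM in the aged group and 0.36 to 1.03 CPM in the young group, so liver transcripts were at or near 0.

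None of the 9 complement genes differed between host ages past the threshold. edgeR's quasi-likelihood test, adjusted with Benjamini-Hochberg over all 14575 genes tested, called 0 members and 0 genes in all (0%). At an unadjusted p under 0.05 it gave 0 of the 9 members, against 4.99% of all genes tested. That number was 1 without aged 46 (C4b, higher in aged tumours), where 6.86% of all genes are. It was also 1 without aged 50 (C3ar1, lower in aged tumours), where 1139 of 14640 genes are. For 0 of the 9 did the aged and young tumours separate without overlap in CPM, against 3.4% of all genes (1.45% higher and 1.95% lower in aged tumours). DESeq2 and limma voom also called 0 of the 9, with 43 and 9 genes called in all (0.295% and 0.0617%). The C1q chains and C3ar1 had log2 fold changes (aged minus young) below 0, those of C3, C4b, C2 and Serping1 lay above 0, and that of Cfb was near 0. The median over the 9 was -0.03, beside 0.03 over all genes tested. 4 of the 9 members lay above 0, beside 55.3% of all genes, and 5 lay below 0, beside 44.7%.

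**Figure D1:**
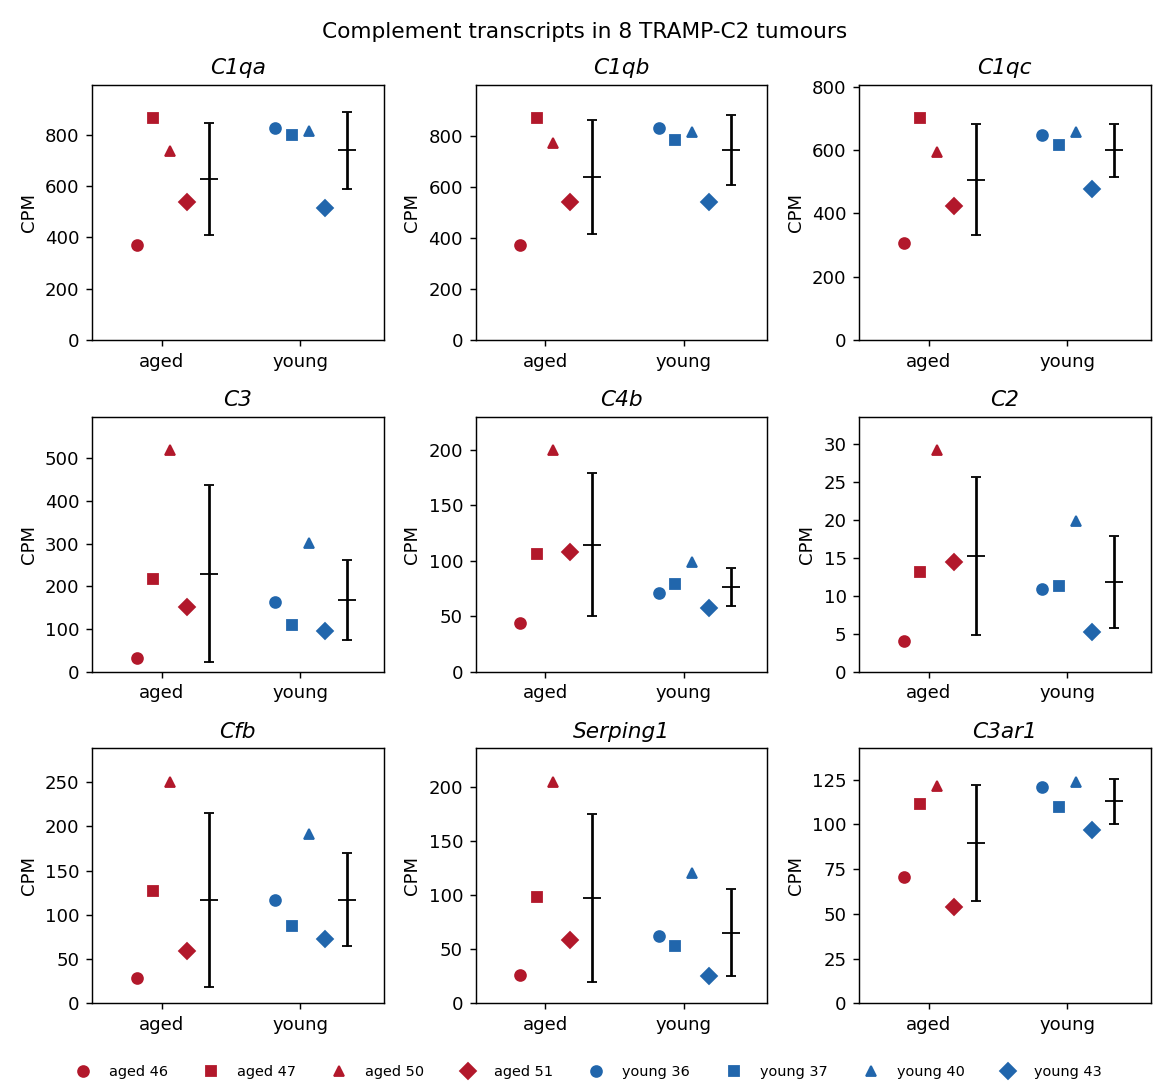
Deposited CPM (y axis, from 0) of each complement gene in the 4 aged and 4 young tumours, with a symbol for each tumour and the mean ± SD of each group in black. The groups overlap for all 9 genes, and aged 50 is the highest and aged 46 the lowest aged tumour for C3, C4b, C2, Cfb and Serping1.

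The C1q chains were among the most abundant transcripts of these tumours. C1qb ranked 100, C1qa 102 and C1qc 123 of 14575 genes by median FPKM (CPM per kilobase of transcript), with medians of 732, 711 and 575 FPKM. C1qa (Entrez 12259, GRCm38 chromosome 4, 136895916 to 136898844) encodes the A chain and stood at 369.8 CPM in aged 46, 865 in aged 47, 739 in aged 50 and 538 in aged 51, against 828.5 in young 36, 799 in young 37, 816 in young 40 and 515 in young 43. Aged 46 was the lowest tumour and aged 47 the highest, so the aged group spanned the young one. The mean was 628 ± 218 CPM over the 4 aged tumours and 739.7 ± 150.3 CPM over the 4 young tumours (± SD). The log2 fold change of C1qa was -0.24 ± 0.25 (SE), with a 95% interval of -0.81 to 0.32 (edgeR adjusted p = 0.92).

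C1qb (12260, chromosome 4, 136880126 to 136886200), the B chain gene, stood at 374, 869, 770.0 and 541 CPM in aged 46, 47, 50 and 51, against 832, 785, 815 and 539.8 CPM in young 36, 37, 40 and 43. C1qc (12262, chromosome 4, 136889801 to 136892936), which encodes the C chain, stood at 307, 701, 595 and 425 CPM in the same aged tumours and at 646, 617, 656 and 476 CPM in the same young tumours. Both repeated the order of C1qa at the ends, with aged 46 lowest and aged 47 highest. Their log2 fold changes were -0.23 ± 0.25 for C1qb and -0.25 ± 0.23 for C1qc (edgeR adjusted p = 0.92 for either), and the intervals reached from -0.78 to 0.33 and from -0.76 to 0.26.

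The 3 chains kept nearly the same ratio in every tumour, although their genes are counted separately. By FPKM, the ratio of C1qb to C1qa was 1.02 to 1.06 in aged tumours and 1.00 to 1.07 in young tumours. The ratio of C1qc to C1qa was 0.81 to 0.85 in aged tumours and 0.79 to 0.95 in young tumours, with young 43 at 0.95 and the other young tumours at 0.79 to 0.82. Pearson's r between the chains was 0.98 to 1.00 over the 8 tumours, a description of libraries that share their cells. The chain genes lie side by side on chromosome 4 and share no exon bases with another gene in GENCODE vM21.

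The RefSeq promoter table (GRCm38.p6) held 4 of the 9 members, C1qb, C1qc, C3 and C3ar1. The 250 bases before the start of C1qb (chr4:136886201-136886450, minus strand) and C1qc (chr4:136892915-136893164, minus strand) are shown because these genes moved together across tumours. For C1qc the table counts from a start at 136892914, which lies 22 bases inside the gene's end as given above, so its window overlaps the gene by 22 bases. They are written 5′ to 3′ in the direction of the gene, with motif matches in capitals.

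C1qb: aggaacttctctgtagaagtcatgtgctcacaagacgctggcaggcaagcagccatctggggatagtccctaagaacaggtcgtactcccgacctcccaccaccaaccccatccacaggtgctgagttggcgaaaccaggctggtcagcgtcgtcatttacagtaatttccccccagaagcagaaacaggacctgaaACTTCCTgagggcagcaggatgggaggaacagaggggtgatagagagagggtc

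C1qc: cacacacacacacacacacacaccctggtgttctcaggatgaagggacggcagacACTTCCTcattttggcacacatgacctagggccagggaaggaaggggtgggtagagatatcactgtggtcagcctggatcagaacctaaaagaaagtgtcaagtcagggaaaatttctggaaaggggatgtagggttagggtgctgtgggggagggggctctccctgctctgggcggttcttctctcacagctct

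The interferon motifs GAS (TTCNNNGAA) and ISRE (GAAA, any 2 bases, then GAAA), searched on both strands, matched in 0 of the 4 windows, and they match in 7.01% and 2.97% of all 32817 windows of this length. The ETS core AGGAAGT, which the myeloid factor PU.1 can bind and which was chosen after the sequences were seen, matched once in C1qb, 47 to 53 bases before the start, and once in C1qc, 189 to 195 bases before the table's start, and it matches in 7.69% of all windows. These matches overlap no other motif searched and say nothing of whether a factor binds.

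C3 varied most between tumours. C3 (12266, chromosome 17, 57203967 to 57228136) encodes the central component that all pathways cleave. It stood at 31.9 CPM in aged 46, 218 in aged 47, 519 in aged 50 and 150.3 in aged 51, against 162 in young 36, 110.4 in young 37, 301 in young 40 and 95.4 in young 43. The highest aged tumour exceeded the lowest 16.3-fold, while the young tumours spanned 3.15-fold within the aged range. The mean was 229.8 ± 207.6 CPM over the 4 aged tumours and 167 ± 93.6 CPM over the 4 young tumours (± SD). The log2 fold change of 0.44 ± 0.67 (edgeR adjusted p = 0.94) had an interval of -1.09 to 1.97. Without aged 50 it was -0.31, so its direction rested on that tumour.

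The window before C3 (chr17:57228137-57228386, minus strand) is shown as that of the member with the widest range. It held the letters TTGCNNAA of the C/EBP family, factors of the acute phase response, 38 to 45 bases before the start (in capitals). This motif was chosen after the sequence was seen and matches in 9.57% of all windows.

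C3: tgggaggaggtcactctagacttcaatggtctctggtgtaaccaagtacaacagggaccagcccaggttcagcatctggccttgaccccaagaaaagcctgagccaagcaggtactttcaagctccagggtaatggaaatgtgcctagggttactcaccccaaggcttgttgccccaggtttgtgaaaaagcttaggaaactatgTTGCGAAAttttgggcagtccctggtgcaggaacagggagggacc

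C4b and C2 encode the proteins that C1s cuts. C4b (12268, chromosome 17, 34728139 to 34743902) stood at 43.5, 106, 200.1 and 108 CPM in aged 46, 47, 50 and 51, against 71.0, 78.8, 98.6 and 57.5 CPM in young 36, 37, 40 and 43. 3 of the 4 aged tumours lay above every young tumour and aged 46 lay below them all. C4b had a log2 fold change of 0.57 ± 0.37 with an interval of -0.26 to 1.41 (edgeR adjusted p = 0.92), which became 0.83 without aged 46, 0.19 without aged 50 and 0.18 without aged 50 and young 36. Its paralog C4a shares 34.6% of the distinct 50-base windows of C4b transcripts, so the authors' counting may have split reads between them. C4a fragments were 0.145 to 0.163 of those of C4b in aged tumours and 0.139 to 0.165 in young tumours, and C4a had a log2 fold change of 0.63 ± 0.39.

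C2 (12263, chromosome 17, 34862602 to 34882100), the least abundant member with a median of 4.61 FPKM, stood at 4.03, 13.1, 29.2 and 14.5 CPM in aged 46, 47, 50 and 51, against 10.9, 11.2, 19.9 and 5.18 CPM in young 36, 37, 40 and 43. Aged 46 and young 43 were low and aged 50 and young 40 high, with full overlap of the groups. The log2 fold change of C2 was 0.36 ± 0.54 (edgeR adjusted p = 0.94) and -0.13 without aged 50. C2 is followed on chromosome 17 by Cfb, and both share exon bases on the same strand with the GENCODE model Gm20547. The overlap is 1656 of 3872 exon bases for C2 and 2246 of 2825 for Cfb. C2 also shares 161 exon bases with Zbtb12 on the other strand. The counts of C2 and Cfb are therefore uncertain without the counting rules.

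Cfb (14962, chromosome 17, 34856374 to 34862514) encodes factor B, the protease of the alternative pathway. It stood at 29.1, 127, 251 and 58.9 CPM in aged 46, 47, 50 and 51, against 117, 88.1, 191 and 72.5 CPM in young 36, 37, 40 and 43. Aged 50 and young 40 were again the highest of their groups, and aged 46 and aged 51 lay below all young tumours. The 4 aged tumours averaged 117 ± 98.4 CPM and the 4 young tumours 117 ± 52.6 CPM (± SD). The log2 fold change of Cfb was -0.03 ± 0.57 with an interval of -1.31 to 1.26 (edgeR adjusted p = 0.997), and it lay above 0 without aged 46 (0.28), aged 51 (0.17) or young 40 (0.28). It was -0.70 without aged 50 and -0.68 without aged 50 and young 36.

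Serping1 (12258, chromosome 2, 84765360 to 84775444), the gene of C1 inhibitor, stood at 26.7, 98.4, 205 and 58.7 CPM in aged 46, 47, 50 and 51, against 62.7, 53.3, 120.4 and 25.2 CPM in young 36, 37, 40 and 43. The lowest tumours of the 2 groups, aged 46 and young 43, were alike, and aged 50 was the highest. The log2 fold change was 0.56 ± 0.60 (edgeR adjusted p = 0.92), and it was -0.076 without aged 50.

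C3ar1 (12267, chromosome 6, 122847140 to 122856157), the C3a receptor, spanned 2.30-fold over the 8 tumours, near the 2.28-fold to 2.34-fold of the C1q chains. It stood at 70.5, 111, 122 and 53.9 CPM in aged 46, 47, 50 and 51, against 121, 109, 124 and 96.8 CPM in young 36, 37, 40 and 43. Aged 46 and aged 51 lay below every young tumour, and the other aged tumours lay among the young. The log2 fold change was -0.34 ± 0.22 with an interval of -0.85 to 0.16 (edgeR adjusted p = 0.92). It was -0.50 without aged 50 and -0.45 without aged 50 and young 36. By FPKM, the ratio of the ligand source C3 to its receptor was 0.38 in aged 46, 1.64 in aged 47, 3.57 in aged 50 and 2.33 in aged 51, against 0.82 to 2.03 in young tumours.

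Per length, the 6 members other than C1q ranked from 1934 (Cfb) to 8464 (C2) of 14575. Their median levels over the 8 tumours were 37.2 FPKM for Cfb, 32.9 for Serping1, 30.4 for C3, 25.7 for C3ar1, 16.02 for C4b and 4.61 for C2. Cfb, Serping1, C3 and C3ar1 changed places from tumour to tumour, so their order is not settled beyond this spread. C1qa exceeded C3 by 6.76-fold in aged 50 and 55.1-fold in aged 46, and by 12.9-fold to 34.4-fold in the young tumours.

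The aged tumours were more spread out than the young ones. For all 9 members the SD of log2 CPM was larger in aged tumours, as it was for 71.9% of all genes tested. It was 1.62 in aged and 0.72 in young tumours for C3, and 0.46 in aged and 0.23 in young tumours for C1qc. The medians over all genes were 0.33 in aged and 0.23 in young tumours.

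**Figure D2:**
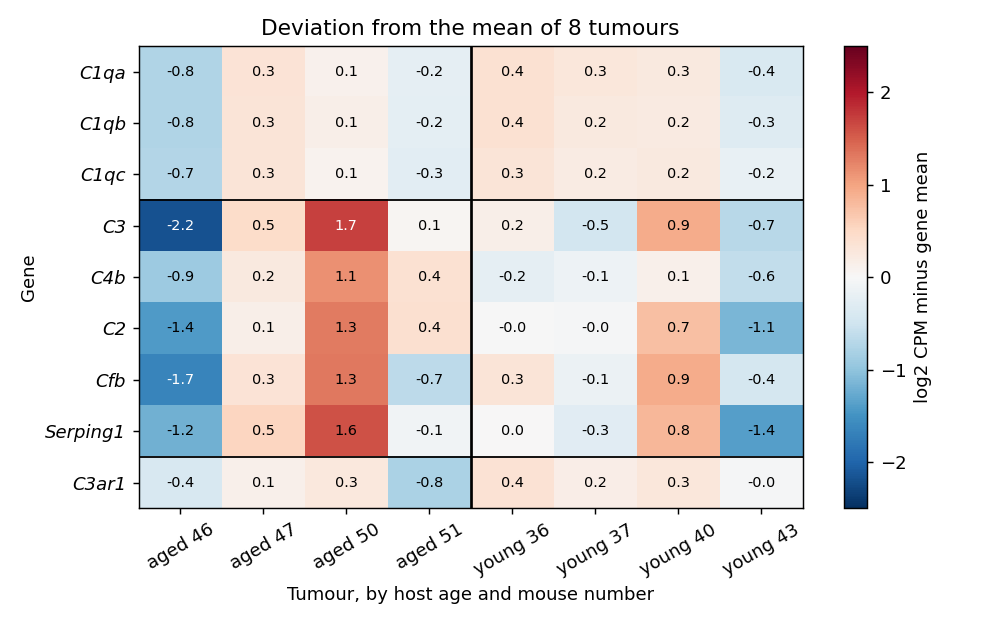
Deviation of log2 CPM from the gene's mean over the 8 tumours (colour and printed value) for the C1q chains, the other components and C3ar1, by tumour, aged left of young. The C1q rows reach -0.8 in aged 46, while C3 runs from -2.2 in aged 46 to 1.7 in aged 50.

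C1q was set against C3, C4b, C2, Cfb and Serping1 as the mean log2 CPM of the chains minus that of the 5 components. The difference was 4.03 in aged 46, 3.29 in aged 47, 2.01 in aged 50 and 3.04 in aged 51, against 3.62 in young 36, 3.75 in young 37, 2.83 in young 40 and 3.86 in young 43. It averaged 3.09 ± 0.84 in aged tumours and 3.52 ± 0.47 in young tumours (SD, n = 4 each), and the gap between these means is smaller than the SD of the aged tumours. Aged minus young, the gap was -0.43 over the 8 tumours and -0.03 without aged 50 and young 36. The difference is a score over the members and was not tested. The other 5 components varied together, with r of 0.76 to 0.95 between them over the 8 tumours, against 0.48 to 0.82 between a C1q chain and one of them. C3ar1 had an r of 0.72 to 0.77 with the C1q chains and of 0.19 to 0.74 with the other components.

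The level of C1q beside macrophage markers was nearly constant. The mean log2 CPM of the chains minus that of the 10 macrophage markers was 2.36, 2.54, 2.47 and 2.63 in aged 46, 47, 50 and 51, against 2.47, 2.45, 2.41 and 2.37 in young 36, 37, 40 and 43. These values span 0.27 log2 units over all 8 tumours, although the chains themselves span 1.11. The mean of the other components minus that of the 10 fibroblast markers was -2.90, -2.01, -1.02 and -2.19 in the aged tumours in that order, against -2.46, -2.67, -2.20 and -3.28 in the young tumours. It averaged -2.03 ± 0.77 in aged tumours and -2.65 ± 0.46 in young tumours (SD, n = 4 each), with overlap between the groups.

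**Figure D3:**
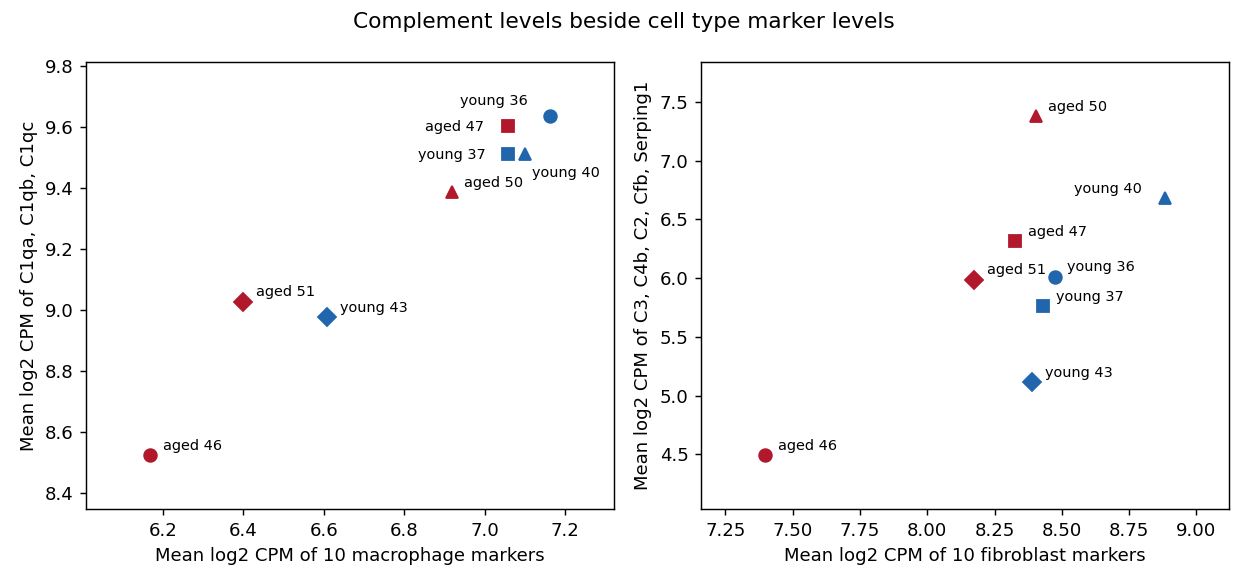
Left, mean log2 CPM of the C1q chains against that of 10 macrophage markers. Right, mean log2 CPM of C3, C4b, C2, Cfb and Serping1 against that of 10 fibroblast markers, with 1 point a tumour (aged red, young blue). The left points lie close to a line from aged 46 to young 36, while at a fibroblast level near 8.4 the right points run from 5.11 in young 43 to 7.38 in aged 50.

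Each member was related to the mean log2 CPM of macrophage, fibroblast and interferon-induced genes over the 8 tumours, 27 relations in all. By exact permutation of Pearson's r over 40320 pairings, two-sided, 12 passed after Benjamini-Hochberg adjustment, 5 with macrophage, 4 with fibroblast and 3 with interferon-induced genes. The C1q chains passed with the fibroblast markers too (r = 0.79 to 0.84, rho = 0.62, exact permutation adjusted p = 0.044 for r and 0.21 for rho), and C1qc with the interferon-induced genes (r = 0.82, rho = 0.50, adjusted p = 0.044 and 0.32). By Spearman's rho 6 passed, and 11 passed by r centred within host age. The lists are not independent of each other, with r of 0.82 to 0.86 between their means. C1qc followed the macrophage markers most closely (r = 0.98, rho = 0.86, exact permutation p = 0.0002 for r and 0.011 for rho, adjusted p = 0.0033 and 0.048). C1qa (r = 0.96) and C1qb (r = 0.97) had rho = 0.88 and exact permutation adjusted p = 0.0094 for r and 0.039 for rho. Without aged 46 and aged 51, the tumours farthest from the median, r with the macrophage markers was 0.97 to 0.98 for the 3 chains. Centred within each host age, it was 0.97 to 0.98 as well (exact permutation adjusted p = 0.016, 576 pairings).

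Among the 5 other components, Cfb passed with all 3 lists, and C3, C4b, C2 and Serping1 passed with 0 of them. Cfb had r = 0.92 and rho = 0.88 with the interferon-induced genes (exact permutation adjusted p = 0.0033 and 0.039). It had r = 0.82 and rho = 0.64 with the macrophage markers (exact permutation adjusted p = 0.041 and 0.21), and r = 0.82 and rho = 0.67 with the fibroblast markers (adjusted p = 0.044 and 0.21). The r of Cfb with the interferon-induced genes was 0.91 without aged 46 and aged 51 and 0.96 centred within host age. C3ar1 followed the macrophage markers (r = 0.87, rho = 0.90, exact permutation adjusted p = 0.037 and 0.039) and the interferon-induced genes (r = 0.90, rho = 0.79, adjusted p = 0.037 and 0.094), and centred within host age neither passed (exact permutation adjusted p = 0.10 and 0.11). With the fibroblast markers C3ar1 passed by rho (0.90, exact permutation adjusted p = 0.039) but not by r (0.63, adjusted p = 0.15). That r was 0.46 centred within host age and 0.93 without aged 46 and young 40. C3 with the fibroblast markers had r = 0.76 and rho = 0.52 (exact permutation adjusted p = 0.078 and 0.31), and without aged 46 and young 40 its r was 0.01. That r was 0.30 without aged 46 alone and 0.73 without young 40 alone. Centred within host age, r with the fibroblast markers was 0.87 to 0.95 for the 5 components other than C1q (exact permutation adjusted p = 0.016 to 0.026). With the interferon-induced genes centred r was 0.73 to 0.96 for these 5 components, and C3, Cfb and Serping1 passed (exact permutation adjusted p = 0.016 to 0.026). Without aged 46 and young 40, uncentred, r of these components with the fibroblast markers was -0.28 to 0.47. Without aged 46 and aged 51, uncentred, their r with the interferon-induced genes was 0.67 to 0.91. C4b had the lowest r with each of the 3 lists, 0.40 to 0.47.

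The number of relations past the threshold depended on single tumours. It was 1 without aged 46, 4 without young 36, young 40 or young 43, 7 without young 37, and 0 without aged 50 and young 36 together. In those 6 tumours r was 0.96 to 0.98 for the C1q chains with the macrophage markers and 0.90 for Cfb with the interferon-induced genes (exact permutation adjusted p = 0.064 for each). There the r of Cfb was 0.92 with the macrophage markers and 0.93 with the fibroblast markers. The r of C3 with the fibroblast markers was 0.88. The relation left without aged 46 was C1qc with the macrophage markers (r = 0.98, exact permutation adjusted p = 0.043). In the 8 sets of 7 tumours, r with the macrophage markers was 0.93 to 0.99 for C1qa, 0.94 to 0.99 for C1qb and 0.98 to 0.99 for C1qc.

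The genes most like the members were sought among 13227 others with a mean log2 CPM of at least 0, by r over the 8 tumours and with no test. Among those closest to the mean of the C1q chains were Clec4a2 (r = 0.99), Clec4a4 (0.99), Rgs10 (0.99) and Cebpa (0.98). Closest to C3 were Apba1, Arhgef10l and Prkch (r = 0.98 to 0.99), to Cfb Lmod1, Slco3a1 and Aldh1b1 (0.98 to 0.99), and to Serping1 Enpp2, Chrdl1 and Rnf152 (0.98). Closest to C4b were Arxes2, C4a and Mapk1ip1 (0.98 to 0.99), to C2 Slfn5, Id3 and 2810021J22Rik (0.97 to 0.98), and to C3ar1 Lst1, Aif1 and Cd69 (0.99). Aif1 is also on the list of macrophage markers.

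Of 43 other complement genes followed, 31 were tested, and 0 passed edgeR's test (0% of all genes passed), with 4 at an unadjusted p under 0.05 where 4.99% of all genes are. That number was 8 without aged 46, where 6.86% of all genes are. Among the classical and lectin pathway genes 6 of 9 tested had a log2 fold change above 0, beside 55.3% of all genes. Fcna, a ficolin that binds sugars on microbes and is made by macrophages, had 16.5, 14.99, 40.1 and 15.8 CPM in aged 46, 47, 50 and 51, against 5.41, 10.8, 12.3 and 5.54 CPM in young 36, 37, 40 and 43. All aged tumours lay above all young ones, and its log2 fold change was 1.36 ± 0.39 (edgeR adjusted p = 0.92), with 0.78 without aged 50 and young 36. Mbl1, Mbl2 and Fcnb had 0 fragments in all 8 tumours.

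Among the alternative pathway genes tested 2 of 3 lay above 0 (55.3% of all genes did), and 0 had an unadjusted p under 0.05. Cfp encodes properdin, which stabilises the alternative pathway's C3-cleaving enzyme. It had 37.9, 93.1, 63.2 and 33.6 CPM in aged 46, 47, 50 and 51, against 72.2, 85.2, 88.1 and 41.6 CPM in young 36, 37, 40 and 43, with overlap of the groups and a log2 fold change of -0.34 ± 0.33 (edgeR adjusted p = 0.92). By limma voom that fold change was 0.025. Cfd encodes factor D, the protease that cuts factor B, also known as adipsin for its release by fat cells. It had 12.6, 47.2, 76.4 and 75.0 CPM in aged 46, 47, 50 and 51, against 1.21, 45.2, 30.6 and 80.4 CPM in young 36, 37, 40 and 43. Young 36 was the lowest tumour, and the log2 fold change of Cfd was 0.44 ± 0.93 (edgeR adjusted p = 0.95), 0.038 without young 36, 1.06 without young 43 and -0.17 without aged 50 and young 36. By limma voom it was 2.13. The adipocyte markers summed to 33.5 to 444 CPM in the aged group and 32.9 to 178 CPM in the young group, with young 36 lowest, and their part in the Cfd values was not tested.

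All 4 tested genes of the terminal pathway, which builds the membrane pore, lay above 0 (55.3% of all genes did), at low levels. C6 had 1.02, 4.66, 9.71 and 3.21 CPM in aged 46, 47, 50 and 51, against 1.11, 1.66, 2.46 and 1.148 CPM in young 36, 37, 40 and 43, and a log2 fold change of 1.53 ± 0.59 (edgeR adjusted p = 0.92). The groups overlapped through aged 46. The fold change of C6 was 0.91 without aged 50 and 0.79 without aged 50 and young 36. C8a was at 0 in all tumours, and C8b and C9 were too low to test.

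Of 7 other receptor genes tested, 6 had a log2 fold change below 0, beside 44.7% of all genes. Vsig4, the receptor for C3 fragments on tissue-resident macrophages, was the exception, at 4.49, 3.02, 7.18 and 4.27 CPM in aged 46, 47, 50 and 51, against 0.312, 1.40, 0.485 and 0.560 CPM in young 36, 37, 40 and 43. Its log2 fold change was 2.79 ± 0.52 (edgeR adjusted p = 0.74, DESeq2 adjusted p = 0.00028). Cd93, an endothelial and myeloid membrane protein once described as a C1q receptor, had 97.2, 126, 96.1 and 92.6 CPM in aged 46, 47, 50 and 51, against 122, 123, 139 and 174 CPM in young 36, 37, 40 and 43. The groups overlapped through aged 47, and the log2 fold change was -0.43 ± 0.14 (edgeR adjusted p = 0.92).

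Of the 8 regulators tested 6 lay above 0 (55.3% of all genes did) and 0 had an unadjusted p under 0.05. Clu, which encodes the secreted chaperone and terminal pathway inhibitor clusterin, had 569, 449, 1099 and 224 CPM in aged 46, 47, 50 and 51, against 943, 176, 98.9 and 25.0 CPM in young 36, 37, 40 and 43. The highest tumours were those with seminal vesicle transcripts, aged 50 and young 36. Clu had a log2 fold change of 0.86 ± 0.98 (edgeR adjusted p = 0.92), 2.10 without both of these tumours, 2.55 without young 36 and 0.40 without aged 50. Cr1l, the rodent membrane regulator Crry, had a log2 fold change of 0.03 ± 0.18 (edgeR adjusted p = 0.99), which was below 0 without aged 47, aged 50 or young 43.

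**Figure D4:**
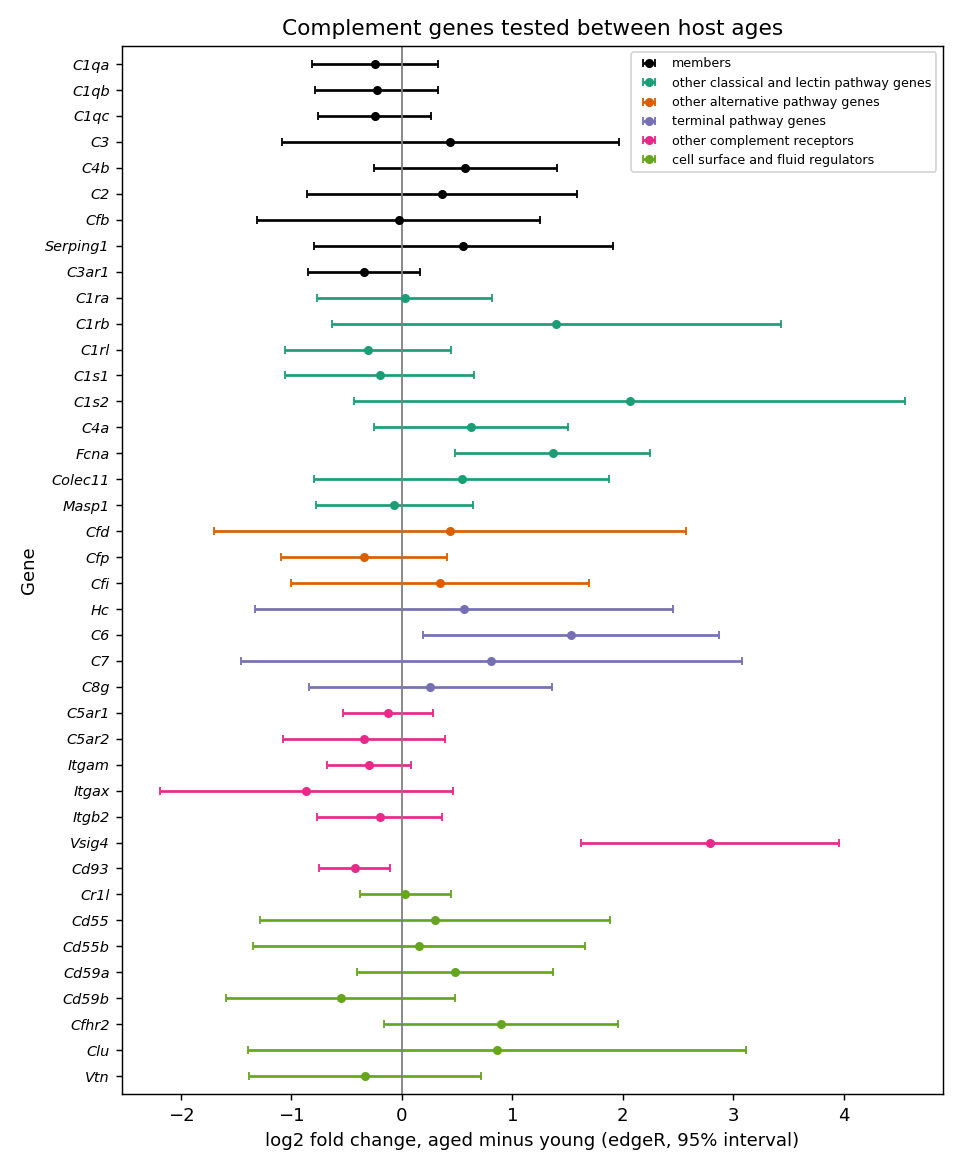
log2 fold change (aged minus young, edgeR) with its 95% interval for the 9 members (black) and the 31 other complement genes tested, coloured by list. The intervals of all 9 members include 0, and that of Vsig4, at 2.79, lies farthest from it.

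Without aged 50 and young 36, edgeR called 0 members and 0 of the other complement genes. The log2 fold changes of C3 (-0.30), C2 (-0.15) and Serping1 (-0.074) then lay below 0, and those of C1qa (-0.23), C1qb (-0.23) and C1qc (-0.25) stayed there.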

How the data were processed

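Bulk mRNA of 8 tumours was read as 50 bp paired ends after TruSeq preparation, per the labels' protocols. bcl2fastq, TopHat2 2.0.12, Picard 2.7.1 and the GRCm38 (mm10) build appear in the submitters' processing notes. How fragments were assigned to genes, and whether strand was used, is not stated there. Per the file headers, the authors deposited fragment counts, FPM and FPKM for 24028 Entrez genes. The deposited FPM is CPM, the count over its column total, and the deposited FPKM is that CPM per kilobase of the transcript length in the table. 27 symbols that had become dates and 5 missing ones were restored by Entrez number from RefSeq.

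Counts were filtered with filterByExpr (minimum count 10, total 15), scaled with TMM and fitted with edgeR 4.0.16 (robust quasi-likelihood, host age as the only term) in R 4.3.3. Benjamini-Hochberg values over all 14575 genes tested had a threshold of 0.05. The SE is the fold change over the square root of F, and intervals use the fit's total degrees of freedom. Relations used log2 CPM (prior count 2). Their p-values come from exact permutation. DESeq2 1.42.0, limma 3.58.1 (voom, weighted by sample), changes of scaling, filter and prior count, and the removal of each tumour were alternatives. The procedure was tested on simulated counts. No library was a copy of another (lowest chi-square per degree of freedom 44.8).

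All members were named. Of each other list, genes with an unadjusted p under 0.05 were named, or else the 2 of highest mean CPM. The members and lists were chosen with earlier results of these data known. By their labels, no 2 tumours share a mouse. Some genes are not reported here.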

Additional observations from a re-analysis of the deposited data

How the results depend on the processing

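No paired analysis was possible because the mouse numbers of the aged and young groups do not coincide. Under all 17 alternative fits 0 of the 9 members were called. Genes called in all were 43 by DESeq2 and 9 by limma voom, against 0 by edgeR, and DESeq2 called 1 other complement gene (Vsig4). Leaving out each tumour in turn gave 0 called genes by edgeR. Over these 8 fits the log2 fold change ranged from -0.31 to 0.85 for C3, -0.13 to 0.71 for C2, -0.70 to 0.28 for Cfb, -0.076 to 0.99 for Serping1 and -0.10 to 0.16 for Cr1l, while C1qa (-0.42 to -0.08), C4b (0.19 to 0.83) and C3ar1 (-0.50 to -0.18) kept their direction. Without aged 50 and young 36, it was -0.30 for C3, -0.15 for C2, -0.68 for Cfb, -0.074 for Serping1, -0.051 for Cr1l and -0.17 for Cfd. By limma voom it was 0.025 for Cfp, against -0.34 by edgeR. For C1qa, C1qb and C1qc it was -0.048, -0.034 and -0.017 by limma voom, against -0.24, -0.23 and -0.25 by edgeR. Of 27 relations with marker lists, 12 passed. The number was 1 to 10 with each tumour left out and 0 without aged 50 and young 36, where 6 tumours remain. The aged minus young difference of C1q minus the other components, -0.43, ranged from -0.74 to -0.065 with each tumour left out. It was -0.03 without aged 50 and young 36. The cause of these shifts was not tested. The members had 130 (C2 in aged 46) or more fragments in every tumour.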

Other observations

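C1rb and C1s2, paralogs of C1ra and C1s1, were high in 1 tumour, an observation made after their values were seen. C1rb reached 329 CPM in aged 50, while the other aged tumours had 13.5 to 35.1 CPM and the young tumours 27.5 to 42.5 CPM. C1s2 reached 195 CPM in aged 50, while the other aged tumours had 4.18 to 13.6 CPM and the young tumours 8.24 to 17.1 CPM. Young 36, which also held seminal vesicle transcripts, had 42.5 CPM of C1rb and 13.9 CPM of C1s2. C1ra and C1s1 had 275 and 197 CPM in aged 50, the other aged tumours 60.2 to 162 and 47.8 to 193 CPM, and the young tumours 126 to 179 and 112 to 225 CPM. How the authors' counting treated reads shared within either pair of paralogs is not known.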
